A study of Homo sapiens with 11 samples.

Results

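The genes described here are 52 members of the TGF-beta and BMP signalling pathways, chosen by gene symbol from a count table of 19990 genes: ligands, receptors, SMAD proteins, ID target genes, antagonists and latent TGF-beta binding proteins. They were measured in cardiomyocytes derived at passage 63 from WTC11, a widely used human iPSC line. A single differentiation was directed with the GSK3 inhibitor CHIR99021 and then the Wnt secretion inhibitor IWP2. Parallel wells were kept without further treatment in RPMI1640 with B27 and insulin until they were collected. Poly(A) RNA was sequenced at 3 ages of the culture: Day 30 (4 wells), Day 60 (3 wells) and Day 113 (4 wells). All groups therefore share the line, the passage, the differentiation and the medium, and differ in the day of collection. The wells come from 1 differentiation of 1 line, so the spread between them covers neither another differentiation nor another line. Each day is also its own collection, and these cannot be told apart.

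TGF-beta family ligands are secreted dimers that bring together type I and type II receptor kinases on the cell surface. TGF-beta and activin receptors phosphorylate SMAD2 and SMAD3, BMP receptors phosphorylate SMAD1, SMAD5 and SMAD9, and both branches use SMAD4 to act on chromatin. BMPs act early in heart formation, and ID1 to ID3, SMAD6 and SMAD7 are among the genes that BMP signalling is known to induce, the SMADs as negative feedback. TGF-beta is stored in the matrix in a latent form, held by latent TGF-beta binding proteins, and is best known in the heart for its action on fibroblasts. Noggin, chordin and follistatin bind ligands outside the cell and block them.

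Libraries held 24071375 to 34546715 counts, and each of the 52 members was tested. Levels are given as CPM, counts scaled to a common library size by TMM, which also corrects for library composition. Cardiomyocyte markers were present on every day, with summed levels over 9 genes of 26800 to 38200 CPM at Day 30, 32800 to 37600 at Day 60 and 27600 to 30600 at Day 113. Markers of other cell types moved between days. The summed level of 7 endoderm and liver markers was 414 to 1210 CPM at Day 30, 44.7 to 54.7 at Day 60 and 26.0 to 45.9 at Day 113, and 6 of the 7 fell from Day 30 to Day 113. The summed level of 7 endothelial markers was 54.3 to 76.5 CPM, then 37.6 to 61.4, then 187 to 775, and all 7 rose from Day 60 to Day 113. For 9 fibroblast markers it was 3360 to 7710 CPM, then 2070 to 3580, then 5450 to 13100, with 6 of 9 higher and 1 lower at Day 113 than at Day 60. The 6 smooth muscle and pericyte markers summed to 694 to 945, 759 to 916 and 965 to 1460 CPM. The 6 epicardial markers summed to 101 to 140, 149 to 207 and 188 to 256 CPM. At Day 113, 2 of these 6 were higher than at Day 30 and 1 was lower. Between these days WT1 rose 8.37-fold and ALDH1A2 fell 2.48-fold. The 5 epithelial markers went from 2030 to 2910 CPM to 1270 to 1460 and 1170 to 1960 CPM (4 lower at Day 113 than at Day 30). The 5 proliferation markers went from 337 to 422 CPM to 528 to 773 and 201 to 397 CPM, and all 5 fell after Day 60. In bulk RNA, fewer cells of a type and less RNA per cell cannot be told apart, and the part of these markers in the results below was not tested.

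To compare levels between genes, CPM was divided by the exon length of each gene in GENCODE release 29. On this scale BMP5 had the highest mean of the members on every day, at 98.9 ± 7.30 CPM per kilobase (SD, n = 4) at Day 30 and 71.5 at Day 113. At Day 113 its wells (62.2 to 86.5) overlapped those of FSTL1 (57.3 to 65.3 CPM per kilobase). At Day 30 the BMP pseudoreceptor BAMBI (81.7 ± 9.01), LTBP1 (79.1 ± 6.56), BMP7 (67.8 ± 4.62) and FSTL1 (62.0 ± 8.15 CPM per kilobase, all SD, n = 4) followed. Among these 5 genes the range over wells of each overlapped that of the next, while FSTL1 (54.7 to 70.4) lay above the sixth, TGFB1 (27.5 to 37.1 CPM per kilobase), without overlap. TGFB1, at 33.4 CPM per kilobase, was the most abundant TGF-beta ligand. TGFBR2, the type II TGF-beta receptor, moved from rank 19 (13.8 ± 1.27 CPM per kilobase, SD, n = 4) at Day 30 to rank 6 (39.6) at Day 113. BMPR1B, BMP3, BMP8B and CHRD held the last ranks at Day 30, at 0.132 to 0.406 CPM per kilobase.

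Most members that changed over the culture fell. From Day 30 to Day 113, 30 of 52 members were lower and 7 were higher at an adjusted p under 0.05 (edgeR's quasi-likelihood test, Benjamini-Hochberg adjustment over all genes), and 15 were not called. Over all 19990 genes 34.5% were called in this comparison, 17.2% lower and 17.3% higher, against 71.2% of the members. The median log2 fold change of the members was -0.53, beside -0.02 for all genes. The wells of Day 30 and Day 113 did not overlap for 31 members, and for 35.1% of all genes. When each well was left out in turn, 28 of the 37 calls were kept in every fit, and the 9 others were BMP1, BMP4, BMP6, BMP7, CHRD, ID3, ID4, TGFBR1 and TGFBR3.

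**Figure D1:**
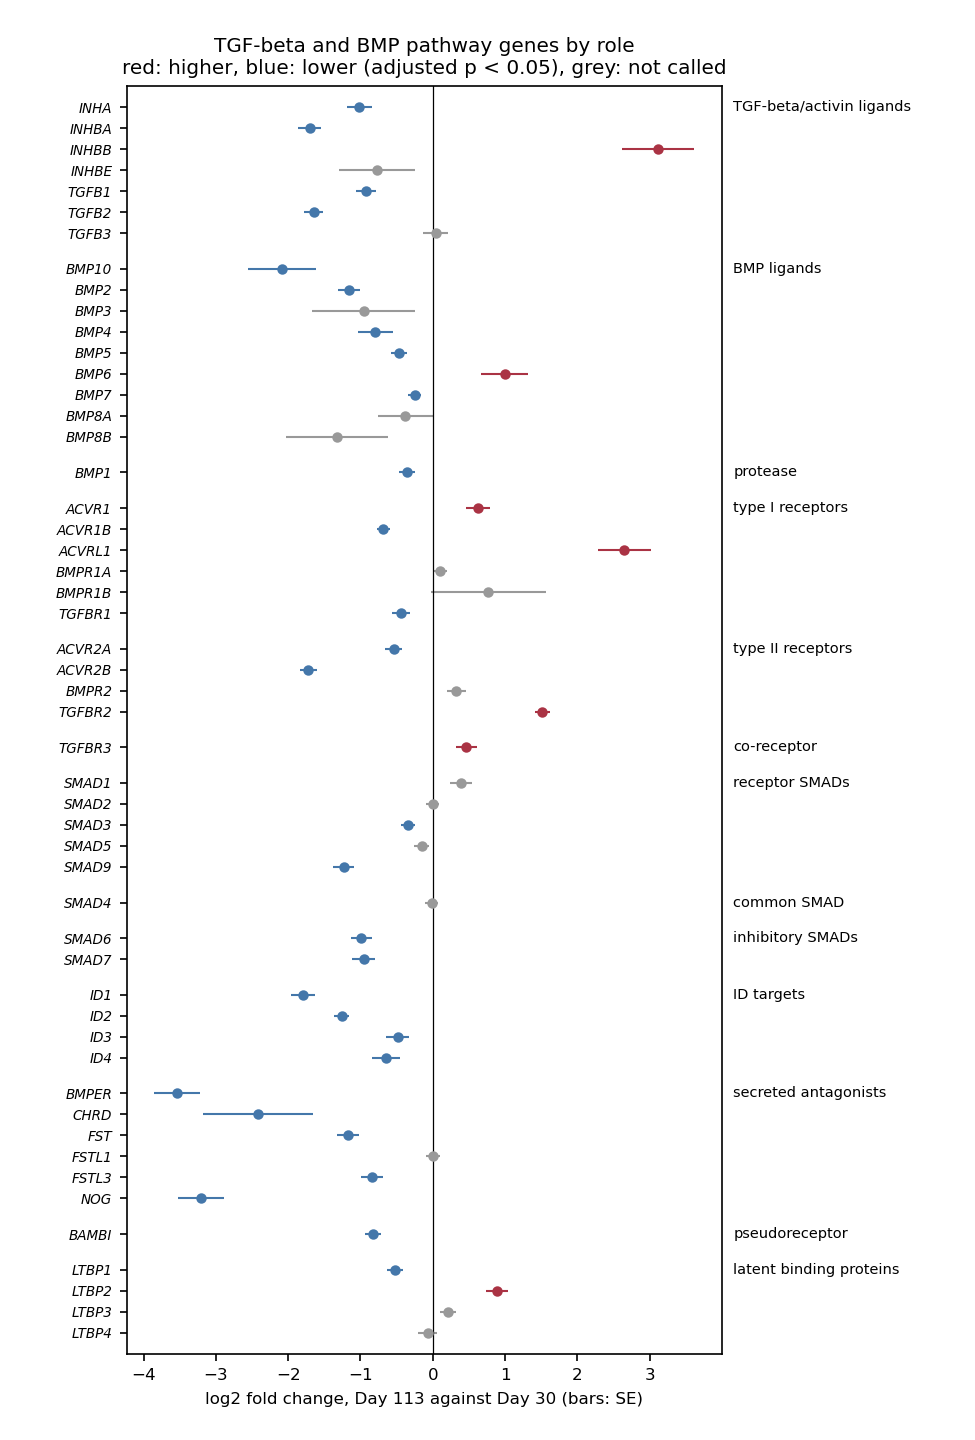
Log2 fold change from Day 30 to Day 113 for 51 of the 52 members, grouped by role, with the standard error from the edgeR fit as bars. Red points mark the 7 members that were higher, blue points 29 of the 30 that were lower and grey points the 15 not called. Every ID gene and inhibitory SMAD is blue, and INHBB, ACVRL1 and TGFBR2 lie farthest to the right.

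Between Day 30 and Day 60, 16 members fell and 2 rose (34.6%, beside 10.3% of all genes, 5.91% lower and 4.39% higher), and wells did not overlap for 28 members (24.8% of all genes). This count rested on single wells: leaving out Day 60 replicate 3 gave 9 and leaving out Day 30 replicate 2 gave 11, and 9 of the 18 calls were kept whichever well was left out. Those 9 were the falls of BAMBI, BMP1, BMP2, BMPER, FST, ID2, TGFB2 and TGFB3 and the rise of TGFBR2. Between Day 60 and Day 113, 14 members fell and 7 rose (40.4%, beside 24.0% of all genes, 11.1% lower and 12.9% higher), and wells did not overlap for 24 members (30.6% of all genes). Of these 21 calls, 13 were kept in every such fit. Across the 3 pairs of days, 39 of 52 members were called in at least 1 (41.5% of all genes), 9 in all 3 and 13 in none. TGFBR2 was the only member called higher in both intervals, and 7 members (TGFB2, INHBA, ID1, ID2, BMPER, NOG and ACVR1B) were called lower in both.

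Among the TGF-beta and activin ligands, 4 of 7 fell from Day 30 to Day 113 and 1 rose (71.4%, beside 34.5% of all genes). TGFB2 (chromosome 1, 218346235 to 218444619, plus strand, GRCh38), a TGF-beta isoform required for heart development, was at 133, 140, 140 and 111 CPM in the Day 30 wells, at 67.2, 67.5 and 78.7 CPM in the Day 60 wells and at 45.3, 29.8, 44.0 and 47.9 CPM in the Day 113 wells. The 3 days did not overlap. TGFB2 fell by 0.88 ± 0.14 (SE) on the log2 scale in the first interval (adjusted p 0.0010), by 0.77 ± 0.14 in the second (adjusted p 0.0012) and by 1.65 ± 0.13 overall (3.13-fold, adjusted p 2.4e-07).

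INHBA (chromosome 7, 41667168 to 41705834, minus strand) encodes the beta A subunit of activin A. Its level was 81.2, 82.1, 81.6 and 90.6 CPM at Day 30, 62.6, 44.5 and 41.6 CPM at Day 60 and 33.0, 18.3, 26.5 and 24.9 CPM at Day 113, again with no overlap between days. The overall fall was 3.26-fold (log2 fold change -1.71 ± 0.16 SE, adjusted p 9.7e-07). Its call in the first interval (log2 fold change -0.76, adjusted p 0.0090) was lost without Day 60 replicate 3 (adjusted p 0.072). INHA, the inhibin alpha subunit that turns an activin subunit pair into the antagonist inhibin, ran from 29.6 to 40.7 CPM at Day 30 and from 14.1 to 22.3 CPM at Day 113 without overlap, a 2.02-fold fall (log2 fold change -1.01 ± 0.18 SE, adjusted p 3.5e-04). TGFB1 averaged 108 ± 13.7 CPM at Day 30 (SD, n = 4), then 79.1 ± 15 CPM at Day 60 (SD, n = 3), and ended at 57.1 ± 8.60 CPM (SD, n = 4), a 1.90-fold fall from Day 30 (adjusted p 7.5e-05). Exons of TGFB1 overlap those of HNRNPUL1 in the annotation, so reads of the 2 genes may be mixed.

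INHBB and TGFB3 took another course. INHBB (chromosome 2, 120346143 to 120351808, plus strand), the beta B subunit of activin B, was at 0.993, 2.33, 1.71 and 1.41 CPM at Day 30 and at 0.0957, 0.700 and 0.410 CPM at Day 60. The Day 113 wells held 29.3, 9.26, 12.5 and 5.01 CPM, each above every earlier well, with replicate 1 highest. The rise from Day 60 was 35.2-fold (log2 fold change 5.14 ± 0.66 SE, adjusted p 6.5e-05) and from Day 30 it was 8.67-fold (3.12 ± 0.50 SE, adjusted p 1.9e-04). Without Day 113 replicate 1 these log2 values were 4.48 and 2.47 and both calls were kept. The Day 60 wells held only 3, 19 and 13 counts of INHBB, so the size of its rise from Day 60 is uncertain. The lower level at Day 60 than at Day 30 was not called (log2 fold change -2.02 ± 0.63 SE, adjusted p 0.051), but was called in 6 of 20 alternative runs. TGFB3 (chromosome 14, 75958099 to 75982991, minus strand), the third TGF-beta isoform, was at 15.5, 13.5, 12.5 and 16.6 CPM at Day 30, at 6.80, 6.96 and 5.58 CPM at Day 60 and at 19.1, 14.1, 15.3 and 11.2 CPM at Day 113. It fell 2.25-fold in the first interval (adjusted p 0.0011) and rose 2.32-fold in the second (adjusted p 4.0e-04), and Day 113 and Day 30 overlapped (log2 fold change 0.04 ± 0.17 SE, adjusted p 0.88). INHBE was at 3.32 CPM or below in every well and was not called.

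Of 9 BMP ligands, 5 were lower and 1 was higher at Day 113 than at Day 30 (66.7%, beside 34.5% of all genes). BMP2 (chromosome 20, 6767664 to 6780280, plus strand), an inducer of cardiac differentiation in the embryo, was at 62.9, 58.8, 52.3 and 59.9 CPM at Day 30, at 37.9, 23.2 and 35.3 CPM at Day 60 and at 33.4, 24.4, 25.7 and 21.1 CPM at Day 113. It fell 2.23-fold from Day 30 to Day 113 (adjusted p 3.9e-05). The first step was a 1.82-fold fall (adjusted p 0.0042) and the second was not called (log2 fold change -0.30, adjusted p 0.23, but 0.041 without Day 60 replicate 2). The difference between the 2 intervals was not called ( 0.57 ± 0.30 SE, adjusted p 0.27). BMP10, a ligand made by heart muscle that signals to endothelium through ACVRL1, went from 5.92, 5.90, 3.23 and 2.71 CPM at Day 30 to 1.13, 0.412, 1.97 and 0.602 CPM at Day 113, a 4.26-fold fall (log2 fold change -2.09 ± 0.47 SE, adjusted p 0.0026).

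The abundant BMP5 and BMP7 changed little. BMP5 went from 391 ± 29 to 283 ± 43.0 CPM (SD, n = 4 each), a 1.38-fold fall (adjusted p 0.0046). BMP7 went from 367 ± 25.0 to 310 ± 13.0 CPM (SD, n = 4 each; 1.19-fold, adjusted p 0.042), and its call was lost in 8 of 11 fits that left out a well, with adjusted p-values up to 0.13. BMP4, at 8.24 to 17.5 CPM at Day 30 and 4.97 to 8.73 CPM at Day 113, fell 1.73-fold (adjusted p 0.019). That call was lost without Day 30 replicate 2 or 3 or Day 113 replicate 4 (adjusted p up to 0.085). BMP6 was the BMP ligand that rose, from 1.30 to 1.83 CPM at Day 30 to 2.01 to 4.65 CPM at Day 113 (1.99-fold, adjusted p 0.028). It was not called without Day 113 replicate 2 or 3 or Day 30 replicate 1, 3 or 4 (adjusted p up to 0.12), nor with well number as a block. BMP3, BMP8A and BMP8B stayed at or below 2.37 CPM and were not called, and BMP8A and BMP8B are near-identical copies whose reads may be split.

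BMP1 is by name a BMP but is a protease that trims procollagen and cleaves chordin. It was at 52.7, 60.2, 58.5 and 44.7 CPM at Day 30, at 32.4, 32.4 and 28.7 CPM at Day 60 and at 42.1, 44.7, 46.0 and 35.7 CPM at Day 113. The Day 60 wells lay below all others, with a 1.73-fold fall into Day 60 (adjusted p 7.9e-04). The 1.35-fold rise after it (adjusted p 0.019) was not called without Day 60 replicate 3 or Day 113 replicate 3 (adjusted p up to 0.079). Its overall fall of 1.28-fold (adjusted p 0.023) was lost without Day 30 replicate 2 or 3 or Day 113 replicate 4 (up to 0.089).

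Receptors moved in both directions. TGFBR2 (chromosome 3, 30606502 to 30694142, plus strand), the type II receptor that binds TGF-beta, was at 69.6, 59.9, 60.1 and 71.0 CPM at Day 30, at 118, 100 and 98.0 CPM at Day 60 and at 205, 181, 187 and 173 CPM at Day 113. No wells overlapped between days. It rose 1.62-fold in the first interval (adjusted p 5.2e-04), 1.77-fold in the second (adjusted p 7.3e-05) and 2.86-fold over the culture (log2 fold change 1.52 ± 0.10 SE, adjusted p 2.5e-08).

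Its partner TGFBR1, the type I TGF-beta receptor, went from 63.2 ± 11.6 to 46.7 ± 4.93 CPM (SD, n = 4 each), a 1.35-fold fall (adjusted p 0.012) that was not called without Day 30 replicate 2 (adjusted p 0.060). The co-receptor TGFBR3, or betaglycan, which presents TGF-beta2 to TGFBR2, went from 26.2 to 33.0 CPM at Day 30 to 37.6 to 42.3 CPM at Day 113 (1.38-fold higher, adjusted p 0.022). That call was lost without Day 30 replicate 1, 2 or 4 or Day 113 replicate 3 (adjusted p up to 0.060).

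ACVR2B (chromosome 3, 38453851 to 38493142, plus strand) is a type II receptor for activins and myostatin. It was at 127, 112, 124 and 126 CPM at Day 30 and at 96.4, 104 and 98.9 CPM at Day 60, a difference that was not called (log2 fold change -0.29, adjusted p 0.18). At Day 113 the wells held 43.6, 27.3, 41.4 and 35.9 CPM, below all earlier wells, a 2.69-fold fall after Day 60 (log2 fold change -1.43 ± 0.13 SE, adjusted p 5.1e-06). Its relative ACVR2A fell from 32.6 ± 3.44 to 22.4 ± 1.92 CPM (SD, n = 4 each; 1.45-fold, adjusted p 0.0021), where exons of ACVR2A overlap those of ORC4. ACVR1B, the type I activin receptor, went from 85.7 to 101 CPM at Day 30 to 67.5 to 76.3 CPM at Day 60 and 53.1 to 59.4 CPM at Day 113 without overlap (1.61-fold lower in all, adjusted p 2.2e-05). Its calls in the single intervals were lost in 6 of 11 fits that left out a well for the first (adjusted p up to 0.11) and without Day 60 replicate 1 for the second (0.071).

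Among BMP receptors, ACVRL1 (chromosome 12, 51906908 to 51923361, plus strand), a type I receptor of endothelial cells for BMP9 and BMP10, was at 3.70, 2.44, 2.34 and 1.37 CPM at Day 30, at 0.574, 1.73 and 0.946 CPM at Day 60 and at 23.9, 14.1, 15.1 and 8.71 CPM at Day 113. All Day 113 wells lay above all others. The rise was 14.3-fold from Day 60 (log2 fold change 3.84 ± 0.44 SE, adjusted p 2.9e-05) and 6.28-fold from Day 30 (adjusted p 4.3e-05). Its earlier change was not called (log2 fold change -1.19, adjusted p 0.087). ACVR1, a type I BMP receptor, rose 1.54-fold from 13.2 ± 2.34 to 20.3 ± 4.14 CPM (SD, n = 4 each; adjusted p 0.0079), and the ranges overlapped (highest 16.6 CPM at Day 30, lowest 16.1 CPM at Day 113). The BMP receptors BMPR1A and BMPR2 were not called in any comparison. BMPR1A was at 95.9 ± 9.27 CPM at Day 30 and 103 ± 11.1 CPM at Day 113 (SD, n = 4 each; log2 fold change 0.10, adjusted p 0.49), and BMPR2 at 243 ± 12.6 and 305 ± 72.0 CPM (SD, n = 4 each; log2 fold change 0.33, adjusted p 0.073). BMPR1B stayed at or below 3.13 CPM.

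Of the SMAD signal transducers, SMAD9 changed most. SMAD9 (chromosome 13, 36844831 to 36920765, minus strand), a BMP SMAD also known as SMAD8, was at 89.3, 62.9, 68.5 and 87.3 CPM at Day 30, at 89.8, 81.4 and 67.9 CPM at Day 60 and at 37.5, 25.2, 37.6 and 30.7 CPM at Day 113. Day 30 and Day 60 overlapped (log2 fold change 0.05 ± 0.16 SE, adjusted p 0.91), and every Day 113 well lay below both. SMAD9 fell 2.43-fold after Day 60 (log2 fold change -1.28 ± 0.16 SE, adjusted p 4.5e-05).

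SMAD1, SMAD2, SMAD4 and SMAD5 were not called between Day 30 and Day 113, but SMAD1 rose after Day 60. SMAD1, a BMP SMAD, was at 15.4, 18.1 and 15.8 CPM at Day 60 and at 31.5, 19.1, 23.8 and 21.4 CPM at Day 113, without overlap (1.46-fold, log2 fold change 0.55 ± 0.16 SE, adjusted p 0.024). That call was lost without Day 113 replicate 1 or Day 60 replicate 1 or 3 (adjusted p up to 0.094) and with only these 2 days in the fit (0.058). SMAD5 was at 115 ± 6.31 CPM at Day 30 and 104 ± 13.3 CPM at Day 113 (SD, n = 4 each; log2 fold change -0.15 ± 0.11 SE, adjusted p 0.30), and SMAD1 at 18.2 ± 1.43 and 23.9 ± 5.37 CPM (SD, n = 4 each; 0.40 ± 0.15 SE, adjusted p 0.052). SMAD4 was at 118 ± 6.72 and 116 ± 7.64 CPM (SD, n = 4 each; log2 fold change -0.02 ± 0.09 SE, adjusted p 0.90), and SMAD2 at 103 ± 2.66 and 103 ± 6.44 CPM (SD, n = 4 each; -0.003 ± 0.088 SE, adjusted p 0.98). SMAD3, which with SMAD2 carries TGF-beta and activin signals, fell 1.26-fold, from 79.5 to 93.5 CPM to 63.1 to 75.0 CPM without overlap (adjusted p 0.014).

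All 4 ID genes and both inhibitory SMADs were lower at Day 113 than at Day 30, as were 17.2% of all genes. ID proteins bind basic helix-loop-helix transcription factors and keep them off DNA, and SMAD6 and SMAD7 block receptor SMADs. ID1 (chromosome 20, 31605283 to 31606515, plus strand) was at 38.3, 39.9, 43.2 and 28.0 CPM at Day 30, at 23.2, 27.2 and 23.4 CPM at Day 60 and at 11.1, 13.7, 10.1 and 8.14 CPM at Day 113. The 3 days did not overlap, and the fall was 3.47-fold overall (log2 fold change -1.79 ± 0.17 SE, adjusted p 9.1e-07), of which 2.28-fold came after Day 60 (adjusted p 2.1e-04). The call in the first interval (log2 fold change -0.60, adjusted p 0.038) was lost when any Day 60 well or Day 30 replicate 1, 2 or 3 was left out (up to 0.14).

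ID2 (chromosome 2, 8678845 to 8684453, plus strand), whose exons overlap those of ID2-AS1, was at 70.7, 67.9, 68.1 and 66.9 CPM, then 41.0, 45.1 and 44.9 CPM, then 27.0, 35.2, 26.6 and 25.3 CPM, also without overlap. It fell 1.57-fold in the first interval (adjusted p 0.0020) and 1.53-fold in the second (adjusted p 0.0012). ID3 and ID4 had smaller log2 fold changes, and their Day 113 wells reached into the Day 30 range. ID3 was at 49.9 to 67.9 CPM at Day 30 and 30.4 to 55.1 CPM at Day 113 (1.40-fold lower, adjusted p 0.029), and was not called without Day 30 replicate 2 or 3 or Day 113 replicate 3 or 4 (adjusted p up to 0.095). ID4 was at 29.3 to 34.6 CPM at Day 30 and at 32.6, 15.5, 18.5 and 15.7 CPM at Day 113 (1.56-fold lower, adjusted p 0.016, and 0.053 without Day 113 replicate 4).

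SMAD6 (chromosome 15, 66702228 to 66782848, plus strand), the inhibitor of BMP SMADs, was at 157, 143, 151 and 152 CPM at Day 30, at 109, 101 and 97.5 CPM at Day 60 and at 82.0, 97.4, 74.7 and 50 CPM at Day 113. The Day 60 and Day 113 wells differed by a log2 fold change of -0.43 that was not called (adjusted p 0.055). This difference was called in 6 of 20 alternative runs. The fall of SMAD6 from Day 30 to Day 113 was 1.98-fold (adjusted p 8.0e-05). Its call from Day 30 to Day 60 (log2 fold change -0.56, adjusted p 0.032) was lost whichever Day 30 or Day 60 well was left out (up to 0.13). SMAD7, which inhibits both branches, averaged 72.9 ± 6.62 CPM at Day 30 (SD, n = 4), 51.0 ± 14.4 CPM at Day 60 (SD, n = 3) and 37.6 ± 6.26 CPM at Day 113 (SD, n = 4). It fell 1.94-fold from Day 30 to Day 113 (adjusted p 2.7e-04). Neither interval alone was called (log2 fold changes -0.52 and -0.44, adjusted p 0.073 and 0.077). Of 20 alternative runs, 4 called the first interval and 3 the second.

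Because ID1, ID2 and SMAD6 fell together and are textbook BMP targets, the 250 bases before their RefSeq transcription starts (GRCh38.p14) were searched for 2 SMAD motifs. These were the palindromic SMAD binding element GTCTAGAC and the GC-rich core GGCGCC. Each motif is its own reverse complement, so both strands were covered, and the motifs do not overlap each other. The windows are chr15:66701986-66702235 for SMAD6, chr20:31605039-31605288 for ID1 and chr2:8681806-8682055 for ID2, all on the plus strand and written 5′ to 3′, with capitals marking a motif match.
SMAD6: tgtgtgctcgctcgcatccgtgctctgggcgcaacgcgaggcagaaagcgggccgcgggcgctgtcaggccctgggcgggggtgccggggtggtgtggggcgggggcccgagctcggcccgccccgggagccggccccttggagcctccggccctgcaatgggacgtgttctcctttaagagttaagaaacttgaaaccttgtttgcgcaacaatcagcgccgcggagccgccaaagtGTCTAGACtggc
ID1: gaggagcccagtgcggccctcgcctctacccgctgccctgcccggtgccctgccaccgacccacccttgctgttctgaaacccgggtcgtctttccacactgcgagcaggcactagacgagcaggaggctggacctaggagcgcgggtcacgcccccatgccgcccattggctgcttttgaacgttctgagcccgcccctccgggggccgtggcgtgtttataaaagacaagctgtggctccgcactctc
ID2: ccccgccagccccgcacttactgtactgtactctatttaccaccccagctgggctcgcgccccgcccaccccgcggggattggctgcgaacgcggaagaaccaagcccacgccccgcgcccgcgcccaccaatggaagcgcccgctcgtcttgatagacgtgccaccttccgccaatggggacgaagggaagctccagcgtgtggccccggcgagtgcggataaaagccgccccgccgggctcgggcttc
The SMAD6 window held GTCTAGAC, starting at position -12 from the transcription start, and it was the only 1 of 76 windows of 44 members with that motif. Among all 35116 windows, 64 (0.182%) held it. GGCGCC was found in 20 of the 76 member windows (26.3%), belonging to 17 members, and in 16.4% of all windows. The windows of ID1 and ID2 held neither motif, which says only that these letters are not within the 250 bases.

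Of the 7 secreted antagonists among the members, 6 were lower at Day 113 than at Day 30 and none was higher (85.7%, beside 34.5% of all genes). The further pathway list holds 9 more measured antagonists, of which 3 were higher and 1 was lower (44.4%, beside 34.5% of all genes). Their median log2 fold change of 0.76 is that of NBL1, which was not called and was at means of only 0.089 and 0.15 CPM on these days. NOG (chromosome 17, 56593699 to 56595590, plus strand), which encodes the BMP trap noggin, was at 7.29, 9.11, 6.35 and 6.39 CPM at Day 30, at 3.13, 2.98 and 1.99 CPM at Day 60 and at 0.462, 0.712, 1.17 and 0.802 CPM at Day 113. Each day lay below the one before without overlap. NOG fell 9.20-fold in all (log2 fold change -3.2 ± 0.32 SE, adjusted p 2.0e-06), with 3.41-fold of it after Day 60 (adjusted p 0.0012). The call in the first interval (2.70-fold, adjusted p 0.0096) was lost without Day 60 replicate 3 (adjusted p 0.057).

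BMPER (chromosome 7, 33904308 to 34156356, plus strand), a chordin-like protein that binds BMPs and can promote or block them, was at 16.0, 15.4, 17.0 and 15.4 CPM at Day 30. It dropped to 3.73, 2.69 and 4.70 CPM at Day 60 and to 1.88, 2.1, 0.770 and 0.722 CPM at Day 113. The falls were 4.29-fold (adjusted p 6.9e-04), then 2.71-fold (adjusted p 0.0049), and 11.6-fold overall (log2 fold change -3.54 ± 0.32 SE, adjusted p 6.6e-07).

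FST, or follistatin, the activin antagonist, was at 16.2, 16.7, 16.9 and 17.9 CPM at Day 30, at 9.99, 8.84 and 9.15 CPM at Day 60 and at 8.72, 7.39, 5.79 and 8.10 CPM at Day 113. It fell 1.81-fold in the first interval (adjusted p 0.0037), and the later step was not called (log2 fold change -0.32, adjusted p 0.19). FSTL3, a follistatin relative that also binds activin, fell 1.79-fold from Day 30 to Day 113, from 62.4 ± 2.66 to 34.8 ± 9.55 CPM (SD, n = 4 each; adjusted p 4.2e-04). CHRD, or chordin, was at 1.60, 3.44, 3.09 and 2.61 CPM at Day 30 and at 0.346, 0.450, 0.456 and 0.762 CPM at Day 113 (5.34-fold lower, adjusted p 0.0205, and 0.056 without Day 30 replicate 2). FSTL1, a secreted glycoprotein of the follistatin family, was at 542 ± 71.1 CPM at Day 30 and 544 ± 30.4 CPM at Day 113 (SD, n = 4 each; log2 fold change 0.01 ± 0.10 SE, adjusted p 0.97). BAMBI, a receptor without a kinase that dampens signalling, was at 167, 217, 183 and 189 CPM at Day 30 and at 114, 95.2 and 98.1 CPM at Day 60, a 1.85-fold fall (adjusted p 3.8e-04). It then stayed at 87.8 to 125 CPM at Day 113 (log2 fold change 0.06 ± 0.12 SE against Day 60, adjusted p 0.79).

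**Figure D2:**
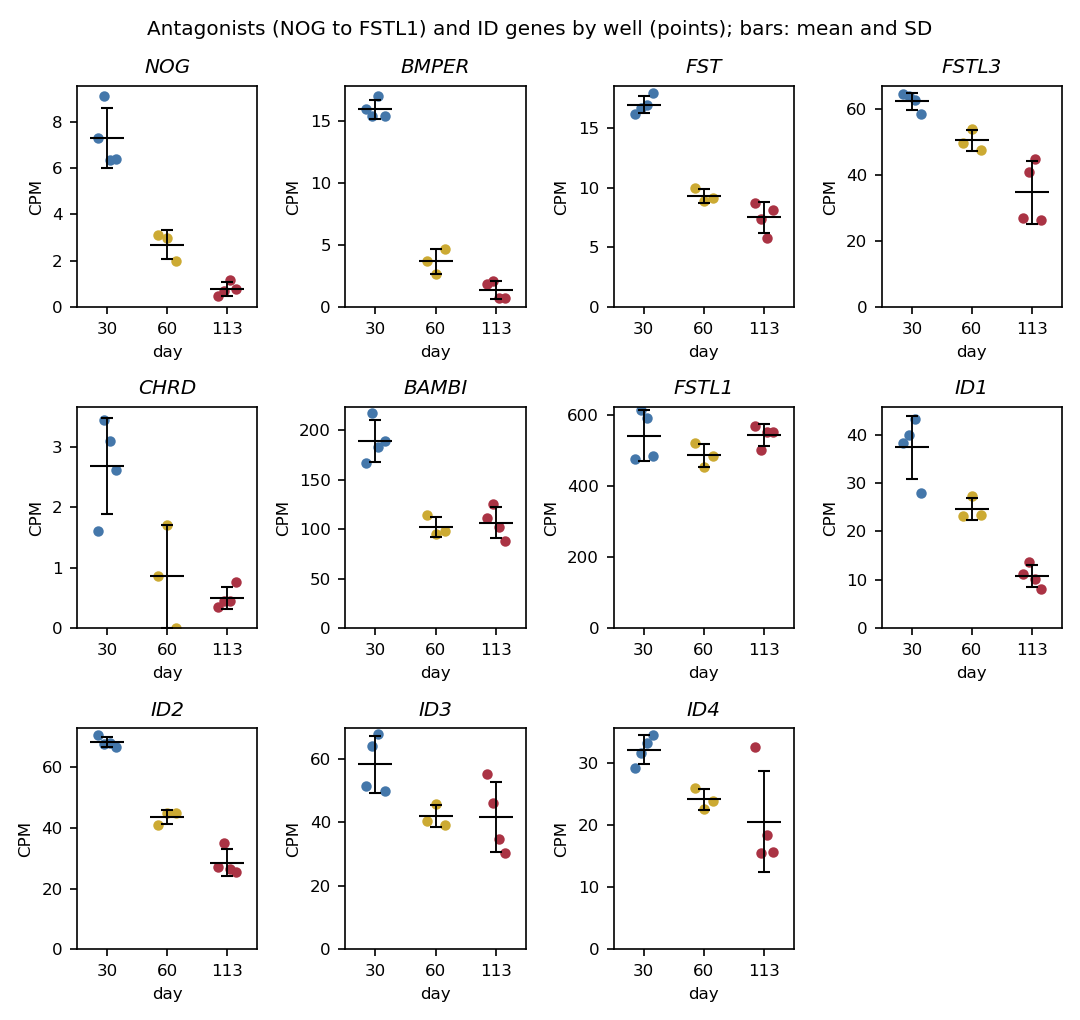
CPM by well (points) at Days 30, 60 and 113 for 6 secreted antagonists, the pseudoreceptor BAMBI and the 4 ID genes, with the mean and SD as bars and each axis starting at 0. NOG, BMPER, ID1 and ID2 step down at both later days, while BAMBI and FST drop by Day 60 and FSTL1 stays between 454 and 614 CPM.

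Latent TGF-beta binding proteins tie TGF-beta to the matrix, and 1 of the 4 fell and 1 rose from Day 30 to Day 113. That is 50%, beside 34.5% of all genes, and 4 genes are too few to set apart from that share. LTBP1 (chromosome 2, 32946972 to 33399509, plus strand) was at 599, 602, 508 and 610 CPM at Day 30 and at 469, 361, 404 and 384 CPM at Day 113, a 1.43-fold fall (log2 fold change -0.52 ± 0.11 SE, adjusted p 0.0017). LTBP2 (chromosome 14, 74498170 to 74612378, minus strand), a family member that does not bind latent TGF-beta and acts on elastic fibres, went from 31.8, 31.5, 37.3 and 26.0 CPM to 47.3, 46.4, 75.6 and 65.6 CPM (1.85-fold higher, adjusted p 3.7e-04). LTBP3 (208 ± 7.13 to 241 ± 31.0 CPM, SD, n = 4 each, adjusted p 0.18) was not called, and LTBP4 was at 98.0 ± 5.73 and 93.3 ± 21.7 CPM (SD, n = 4 each) and was not called either.

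A direct test of the second interval against the first called 7 members, 5 of them above 0 and 2 below. The share was 13.5% of members, beside 9.34% of all genes (4.97% above 0 and 4.38% below). The 5 above 0 were INHBB (difference in log2 fold change 7.16 ± 1.21 SE, adjusted p 0.0021), ACVRL1 (5.03 ± 0.80 SE, adjusted p 0.0015), TGFB3 (2.39 ± 0.36 SE, adjusted p 0.0010), BMP1 (1.23 ± 0.23 SE, adjusted p 0.0038) and BAMBI (0.94 ± 0.23 SE, adjusted p 0.017). For BAMBI this is a fall that stopped, since its Day 60 and Day 113 levels overlapped and their difference was not called. Leaving out Day 60 replicate 2 gave 8.42 for INHBB and 6.02 for ACVRL1, and leaving out Day 60 replicate 1 gave 6.18 and 4.38. INHBB was not called by limma-voom (adjusted p 0.13). The 2 below 0 were ACVR2B (-1.13 ± 0.22 SE, adjusted p 0.0056) and SMAD9 (-1.33 ± 0.27 SE, adjusted p 0.0065). BAMBI was not called without Day 60 replicate 2 or 3 (adjusted p up to 0.095), nor SMAD9 without Day 60 replicate 1 (adjusted p 0.057).

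**Figure D3:**
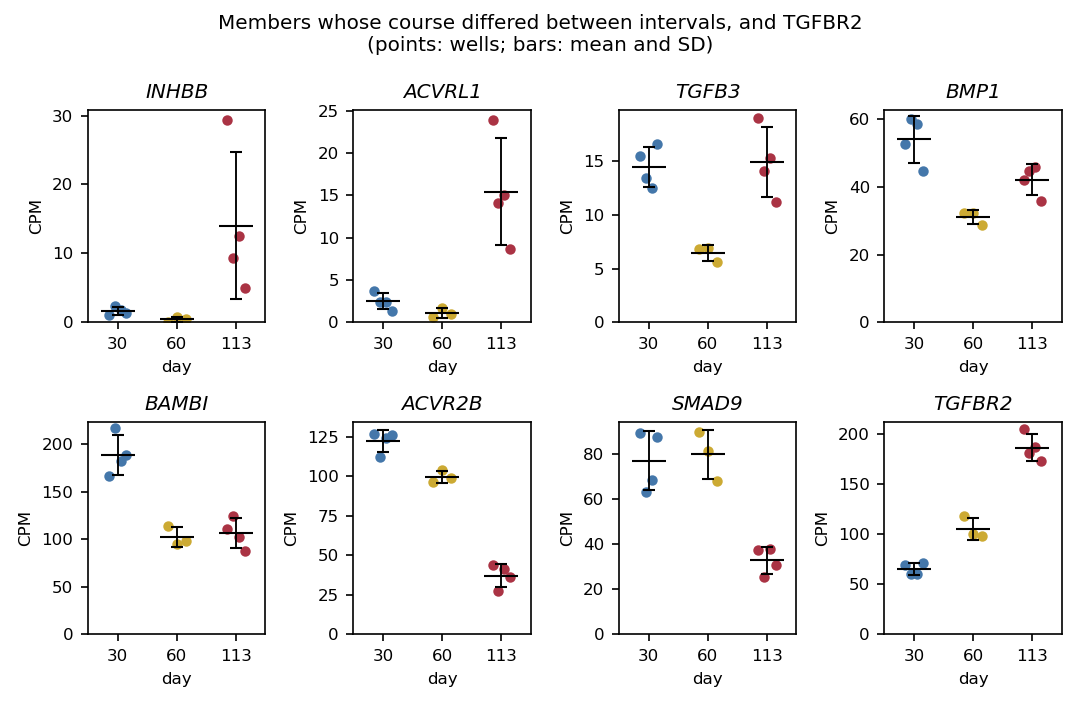
CPM by well (points) on the 3 days for the 7 members whose change differed between intervals and for TGFBR2, with the mean and SD as bars and axes starting at 0. INHBB and ACVRL1 are low until Day 60, TGFB3 and BMP1 dip at Day 60, ACVR2B and SMAD9 drop after Day 60, and TGFBR2 rises at each step.

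ACVRL1 and INHBB were high in the same wells as endothelial markers. In Day 113 replicates 1 to 4 the 7 endothelial markers summed to 775, 296, 357 and 187 CPM, ACVRL1 was at 23.9, 14.1, 15.1 and 8.71 CPM and INHBB at 29.3, 9.26, 12.5 and 5.01 CPM. The 3 measures had the same order of wells. So did the summed fibroblast markers (13100, 6790, 11300 and 5450 CPM). The same held for the summed smooth muscle and pericyte markers (1460, 1210, 1240 and 965 CPM). This order was not particular to ACVRL1 and INHBB. Members such as TGFBR2, ACVR1, TGFB3, TGFBR1 and BMP2 had it too, and TGFBR1 and BMP2 were lower at Day 113 than at Day 30. PECAM1, an endothelial adhesion molecule, was at 347, 143, 169 and 84.5 CPM in these wells and at 19.3 CPM or below in every earlier well, and CLEC14A was at 0 in Day 60 replicate 3. ENG, or endoglin, the endothelial co-receptor that works with ACVRL1, rose from 25.5 to 40.6 CPM after Day 60 (log2 fold change 0.67 ± 0.20 SE, adjusted p 0.020), and was not called without Day 60 replicate 3 or Day 113 replicate 1 (adjusted p up to 0.11, log2 fold change down to 0.44). All values of a well share a library, n is 11 over all days, and the order rests on the 4 Day 113 wells. The part of endothelial or other cell types' RNA in the rise of ACVRL1 and INHBB was not tested.

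**Figure D4:**
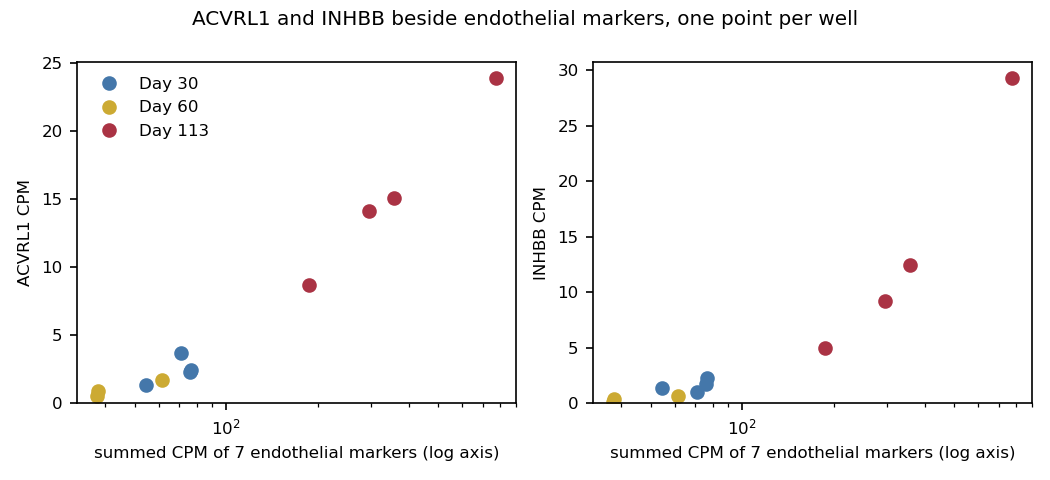
CPM of ACVRL1 (left) and INHBB (right) against the summed CPM of 7 endothelial markers on a log axis, 1 point per well, coloured by day. The 4 Day 113 wells lie at 187 to 775 CPM of markers and above all Day 30 and Day 60 wells for both genes.

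Of 56 further pathway genes listed, 51 were measured. This list and the lists of target genes below were chosen with earlier results of these data known, which limits what their shares show. From Day 30 to Day 113, 9 rose and 15 fell (47.1%, beside 34.5% of all genes), with a median log2 fold change of -0.15. In the first interval 1 rose and 9 fell (19.6%, beside 10.3%), and in the second 10 rose and 7 fell (33.3%, beside 24.0%; 6 and 4 without Day 60 replicate 1). Of the antagonists on this list, VWC2, which binds BMPs, rose from 22.5, 13.8, 15.1 and 16.9 CPM at Day 30 to 38.7, 38.7, 44.7 and 32.6 CPM at Day 113, without overlap (log2 fold change 1.18, adjusted p 2.2e-05). SOSTDC1, a secreted BMP and Wnt antagonist, rose from a mean of 1.76 to 5.89 CPM (1.74, adjusted p 0.0070), with overlap between wells. DAND5, a NODAL antagonist, was at 0.42 CPM or below in the Day 30 wells and at 2.40 to 5.21 CPM at Day 113 (4.55, adjusted p 0.0023). CER1, an antagonist of NODAL and BMPs, was the 1 that fell, from 1.58 to 3.10 CPM at Day 30 to 0.201 CPM or 0 at Day 113. Among ligands, GDF15, a stress-induced family member, fell from 16.9 to 5.76 and 2.12 CPM (log2 fold change -2.98 in all, adjusted p 5.4e-07). GDF11, a relative of myostatin, fell from 53.9 to 31.6 CPM (-0.77, adjusted p 2.0e-04). AMH, anti-Mullerian hormone, rose from 4.00 to 8.34 CPM (1.06, adjusted p 0.0020).

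The list includes co-receptors of NODAL and integrins that release TGF-beta from its latent form. TDGF1, the NODAL co-receptor known as Cripto, fell from 9.40 to 2.12 and 1.21 CPM (log2 fold change -2.96 in all, adjusted p 3.9e-06). ITGB6, the epithelial integrin subunit that activates latent TGF-beta, was at 35.2, 120, 79.8 and 22.5 CPM at Day 30, at 1.72, 1.25 and 2.18 CPM at Day 60 and at 0.202, 0.900, 0.114 and 0 CPM at Day 113 (log2 fold change -7.76 ± 0.66 SE, adjusted p 3.8e-07). The epithelial marker EPCAM followed the same order of days, at 28.7 to 92.0 CPM, then 1.25 to 2.62 CPM, then 0.762 to 1.54 CPM. So did the means of CDH1 (69.25, 7.68 and 4.75 CPM) and KRT19 (634, 457 and 117 CPM). The first step of KRT19 was not called (adjusted p 0.29). The second step was not called for EPCAM (adjusted p 0.0996) or CDH1 (adjusted p 0.43), and wells overlapped. For ITGB6 the call of the second step (adjusted p 0.024) was lost in 5 of 11 fits that left out a well (up to 0.085). KRT8 (1092, 664 and 971 CPM) and KRT18 (536, 262 and 382 CPM) rose after Day 60. The part of epithelial cells in the fall of ITGB6 was not tested. Fibrillins carry latent TGF-beta complexes in the matrix. FBN2, the fetal form, fell from 1395 to 702 and 608 CPM (-1.20, adjusted p 5.3e-05), while FBN1 rose from 135 to 169 and 329 CPM (1.29, adjusted p 0.0011). Among intracellular regulators, SKIL, a repressor of SMAD complexes and itself a TGF-beta target, fell from 143 to 105 and 67.7 CPM (-1.08, adjusted p 1.5e-06), and FKBP1A, which keeps type I receptors silent, rose from 164 to 244 CPM (0.58, adjusted p 2.3e-04).

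The listed genes that TGF-beta is known to induce mostly fell into Day 60 or were not called, and mostly rose after it. Of 14 such genes measured, 7 fell and 1 rose in the first interval (57.1%, beside 10.3% of all genes), and 11 rose and none fell in the second (78.6%, beside 24.0%), with medians of -0.91 and 1.18 on the log2 scale. The target SKIL, placed above with the intracellular regulators, is not in these counts and went down in the second interval (log2 fold change -0.63, adjusted p 8.4e-04). SKIL also fell in the first (-0.45, adjusted p 0.018), a call lost in 3 of 11 fits that left out a well (up to 0.11). The count of 8 in the first interval was 5 without Day 60 replicate 1 or without Day 30 replicate 2 or 3, and 4 without Day 60 replicate 3. The change differed between the intervals for 10 of the 14 (4 without Day 60 replicate 3). Against Day 30, 7 were higher and 3 lower at Day 113 (71.4%, beside 34.5%), so the genes did not end on 1 side. POSTN, the matricellular protein periostin, went from 56.0 to 84.0 and 196 CPM and ACTA2, smooth muscle actin, from 74.1 to 104 and 252 CPM. COL1A1, which encodes the alpha-1 chain of collagen I, went from 1681 to 807 and 3076 CPM (higher at Day 113 than at Day 30 at adjusted p 0.032, a call lost without Day 30 replicate 1 or 4 or Day 113 replicate 1 or 3, up to 0.10). The 3 that ended lower were TGFBI, a matrix adhesion protein (469, 35.0 and 52.3 CPM, 8.96-fold lower, adjusted p 8.4e-06), FN1, fibronectin (6992, 625 and 1672 CPM, 4.18-fold lower, adjusted p 5.0e-04), and CDKN2B, a cell cycle inhibitor (32.3, 8.20 and 9.08 CPM, 3.56-fold lower, adjusted p 6.9e-05). In the Day 30 wells TGFBI was at 267, 824, 588 and 196 CPM and FN1 at 5230, 10300, 8860 and 3530 CPM, the same order of wells as EPCAM (45.6, 92.0, 71.1 and 28.7 CPM) and the fibroblast sum (4520, 7710, 6800 and 3360 CPM). Of these 14 genes, COL1A1, COL1A2 and POSTN are also on the fibroblast list, and TAGLN and ACTA2 on the smooth muscle list. The summed fibroblast markers also dipped at Day 60, and that sum is mostly COL1A1, COL1A2 and COL3A1 (means of 1681, 1414 and 2221 CPM at Day 30). The other fibroblast markers did not share 1 course. LUM fell from 50.2 to 16.75 CPM in the first interval (adjusted p 5.2e-04) and was at 20.8 CPM at Day 113. DCN (24.6, 34.2 and 60.0 CPM), TCF21 (0.661, 1.18 and 5.11 CPM) and POSTN had no dip. THY1 went from 4.81 to 4.68 and 38.4 CPM, while the mean of PDGFRA was lower at each step (144, 96.5 and 32.3 CPM). The part of fibroblasts and of EPCAM-expressing cells in the target genes was not tested.

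Known BMP targets outside the member list were lower or not called. Of 9 measured, 4 were lower at Day 113 than at Day 30 and none was higher. This share of 44.4% is near the 34.5% of all genes called in either direction, while 17.2% of all genes were called lower. The list is short, its difference from these shares was not tested, and only 2 were lower without Day 30 replicate 2. MSX2, a homeobox factor induced by BMP, was at 14.1, 13.9, 10.9 and 9.89 CPM at Day 30 and at 3.2, 2.59, 3.2 and 1.89 CPM at Day 113 (log2 fold change -2.16, adjusted p 1.3e-05). TBX2, a T-box repressor of the atrioventricular canal, fell from 72.1 to 45.1 and 36.6 CPM (-0.98 from Day 30 to Day 113, adjusted p 2.4e-06), HEY1 from 27.4 to 15.6 CPM (-0.81, adjusted p 0.016) and HAMP from 1.56 to 0.223 CPM (-2.79, adjusted p 0.039). The call of HEY1 was lost without Day 30 replicate 2 or Day 113 replicate 3 (adjusted p up to 0.053) and that of HAMP in 7 of 11 fits that left out a well (up to 0.096). ATOH8 and MSX1, with log2 fold changes of 0.24 and 0.19, were not called.

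**Figure D5:**
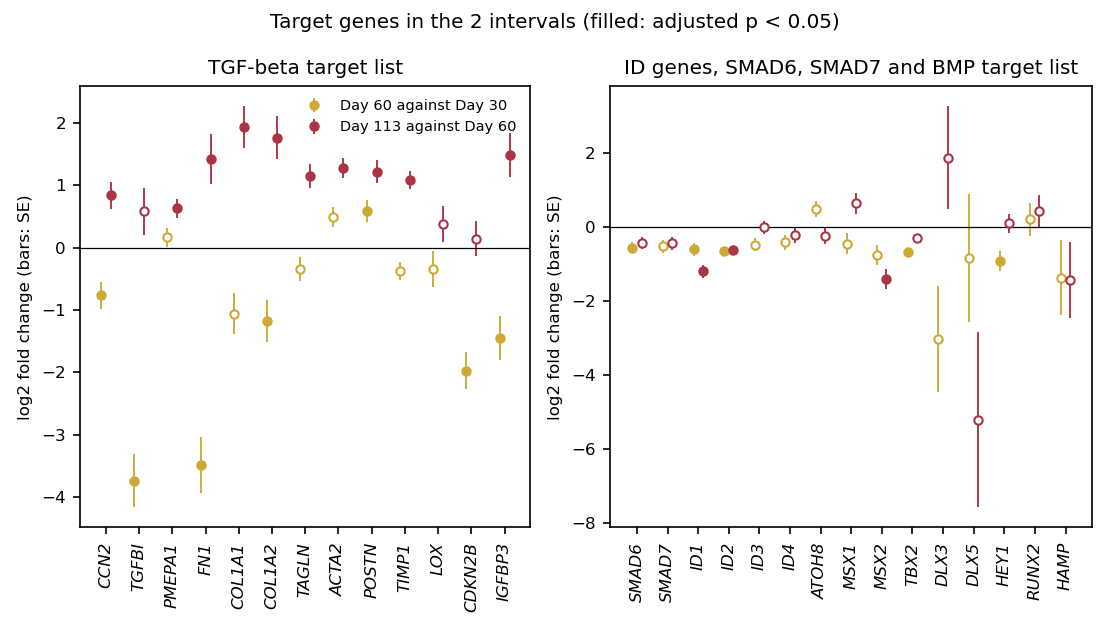
Log2 fold change in each interval, with standard errors, for 13 of the 14 TGF-beta target genes (left) and for the ID genes, SMAD6, SMAD7 and 9 other BMP targets (right). Filled points passed an adjusted p of 0.05, and on the left 10 points of the second interval are filled and above 0, while no filled point on the right lies above 0.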

How the data were processed

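Poly(A) RNA of 11 wells was sequenced, 4 at Day 30, 3 at Day 60 and 4 at Day 113. The authors deposited raw read counts per gene symbol. STAR 2.5.3a, featureCounts 2.0.3 and genome build hg38 are named per the submitters' processing notes, while the annotation and the strand setting are not given in the sources used here. The authors also deposited TPM values, which were used only for a check: the gene length implied by count and TPM did not correlate between libraries (median Spearman rho -0.00143 across genes over 55 library pairs), so no result rests on them.

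Members were taken by symbol. The members and gene lists were chosen with earlier results of these data known. Counts were scaled by TMM (factors 0.966 to 1.036), filtered with filterByExpr at a minimum count of 10, which removed none of the 19990 genes, and fitted over all 11 libraries with day as factor by edgeR 4.0.16 (R 4.3.3). Quasi-likelihood tests compared each pair of days and the 2 intervals with each other, with Benjamini-Hochberg adjustment over all 19990 genes and a threshold of 0.05. SE was derived from the size of the fitted change and its F statistic. Every member may be named, with values by well for members called in at least 1 pair of days at a mean of 1 CPM or more in the higher day, and listed genes called in at least 1 pair come first. Alternatives were DESeq2 1.42.0, limma-voom (limma 3.58.1), other scalings and filters, robust dispersions, only the 2 days compared, a replicate block, a threshold of 0.01 and leaving out each well.

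Same-day libraries differed beyond sampling noise (chi-square per degree of freedom 11.1 to 80.8), so none was counted as a duplicate. On simulated counts for Day 60 against Day 30, 200 of 19990 genes were changed, all drawn from genes with a mean above 1 CPM. Of these, 50% of genes changed 2-fold and 86% of genes changed 4-fold were recovered, with 9 unchanged genes among 145 calls. In the data 2060 genes were called in this comparison, and some members lay below 1 CPM. These rates therefore need not hold for the members. Exons of 16 members overlap another gene in GENCODE release 29, for 5 of them a gene of the count table. Promoter windows are from RefSeq and matched 44 of 52 members. The values of 1 member and 1 target gene, both included in the counts, are not reported here.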

Additional observations from a re-analysis of the deposited data

Results flagged for a closer look

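In 4 of 104 sets of 4 wells (each member at Day 30 and at Day 113), 1 well stood apart from the other 3 by Dixon's criterion, where chance gives about 1 in 20. INHBA was at 90.6 CPM in Day 30 replicate 4 and at 81.2 to 82.1 CPM in the other Day 30 wells. BMPR1A was at 110 CPM in Day 30 replicate 4, against 90 to 92.9 CPM in the others. TGFBR3 was at 33.0 CPM in Day 30 replicate 3, against 26.2 to 27.2 CPM. LTBP1 was at 508 CPM in Day 30 replicate 3, against 599 to 610 CPM.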

How the results depend on the processing

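No called member changed direction under any alternative run. Some changes that were not called in the main fit were called in a few of 20 alternative runs. Among them, ACVRL1 (Day 60 against Day 30) was called in 4 and SMAD1 (Day 113 against Day 30) in 5. ACVR2B (Day 60 against Day 30) and BMPR2 (Day 113 against Day 30) were each called in 2. At an adjusted p under 0.01, 11 members were called for Day 60 against Day 30 and 13 for Day 113 against Day 60. With each well left out in turn, the counts ran from 9 to 24 for Day 60 against Day 30, from 16 to 24 for Day 113 against Day 60, from 30 to 38 for Day 113 against Day 30 and from 6 to 7 for the difference between intervals. Well numbers are shared between days. Deviations of same-numbered wells correlated at 0.023 to 0.076 (10 pairs, median 0.046, none over 0.1). Those of differently numbered wells correlated at -0.078 to 0.069 (30 pairs, median -0.022). The labels do not say that the numbers pair the wells, so the main fit did not block on them. These weak correlations cannot exclude a pairing. In 17 of 20 comparisons of a well with another day, the correlation was highest with its own number, which is a hint from the data and not the design. With the replicate block the counts were 24, 23, 36 and 7 in the order above. Log2 fold changes near 0 that were not called changed sign, and the cause was not tested. Under upper-quartile scaling BAMBI was at -0.011 (Day 113 against Day 60) and FSTL1 at -0.020 (Day 113 against Day 30), and SMAD2 was at 0.010 with the 1 CPM filter and at 0.013 with only the 2 days compared. Leaving out wells moved BAMBI from -0.029 to 0.139, FSTL1 from -0.050 to 0.081, SMAD2 from -0.028 to 0.035, SMAD4 from -0.060 to 0.020 and TGFB3 from -0.100 to 0.156. SMAD9 (Day 60 against Day 30) ran from -0.021 to 0.177. Counts were low for some members (BMP8B 0 to 64 and CHRD 0 to 103 counts per well). In the Day 60 wells INHBB had 3, 19 and 13 counts and ACVRL1 had 18, 47 and 30. The effect of depth on the calls and fold changes of these members was not tested.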
